A study of Arabidopsis thaliana with 14 samples.

Results

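Whole embryos of Arabidopsis thaliana at the bent and mature stages (4 libraries) were compared with whole embryos at the heart and torpedo stages (4 libraries), and genes were sought that moved the same way in both late stages. These are 8 of the 14 libraries of an RNA-seq series over 7 stages from the zygote to the mature embryo. All embryos were of the Col-0 ecotype, with no mutation, transgene or treatment named in the labels and no age given. Each stage has 2 libraries, which the protocol calls biological replicates, so every stage value rests on 2 measurements. Every library was made from RNA amplified as antisense RNA before TruSeq construction, a step that can change the relative levels of transcripts. All 25414 entries with a locus code were used, and the 18744 of them that reached a normalised value of 10 in at least 2 libraries were tested. That filter ran over all 14 libraries, so the tested set includes genes that passed it through the zygote, octant or globular stage, and 17078 pass in the 8 compared libraries alone.

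Between the heart and torpedo stages an embryo finishes laying out its organs and greens. From the bent stage onward its cells stop dividing, expand and fill with storage proteins and oil, and during the last stage they acquire tolerance to drying and become quiescent. Storage protein and oleosin genes are known targets of the LEC1, ABI3, FUS3 and LEC2 regulators and of abscisic acid signalling, through promoter elements of the RY and ABRE types.

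A normalised value here is the number of reads of a gene scaled so that a whole library sums to 20000000, and a log2 change is a difference of log2(value + 4). The bent libraries held 17798620 and 12068569 reads and the mature ones 12783748 and 20444185, against 13247056 and 19982767 in heart and 6097762 and 30803336 in torpedo. Because values are shares of a library, and because whole embryos were ground up, fewer cells of a type and less RNA per cell cannot be told apart, and a few very abundant transcripts lower all others. The 10 most abundant genes took 14.7% ± 2.50 of the values in bent and mature libraries and 6.90% ± 1.51 in heart and torpedo libraries (SD, n = 4 each, exact permutation test, two-sided p = 0.0286, the smallest this design allows). Bent replicate 2 stood apart, with 26.3% of its reads in entries without a gene identifier, against 9.15% to 15.6% in the other 7 libraries, and a single such entry held 16.6% of it. Strand is not marked in these libraries, so values are uncertain for named genes that overlap another annotated gene, which are ACP5, AGL67, AT2G41090, AT5G46430, AT5G60390, BCCP2, CER10, COR15B, CSY3, DIN10, ENO1, FIB2, GolS1, HSFA9, HSP17.4, MIPS3, MP, MUM4, NOP56, OLEO1, POR C, PORB, PRL, PSAD-2 and RAB18. HSD1 is uncertain for another reason, since all of its 50-base words (100%) also occur in another gene.

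The embryo regulators LEC1, FUS3 and ABI3 were found in these embryos, with FUS3 and ABI3 in all 8 libraries and LEC1 in 7 of them. Embryo markers did not all stay high in the late stages. LEC1 and CUC1 (AT3G15170), of the same marker list, were lower in both, and WOX2 was lower in bent and higher in mature. Markers of the endosperm summed to 0.0017% to 0.00487% of a library in the late stages and 0.00156% to 0.00271% in the earlier ones, and of the 13 in the table WRKY10 and AT5G26630 were at 0 in all 4 late libraries. Of the 10 endosperm markers tested, 1 was higher and 3 were lower with the late stages pooled, where 13.8% and 50% of all genes tested were. The higher one was EPR1 (AT2G27380), an extensin-like gene of the endosperm, with 721 and 955 in bent and 377 and 310.1 in mature, against 63.4 and 78.1 in heart and 115 and 160.4 in torpedo. Seed coat markers summed to 0.00702% to 0.0143% in the late stages and 0.0261% to 0.0473% in the earlier ones, and their part in the results below was not tested. With the late stages pooled 0 of 10 seed coat markers were higher and 7 lower, where 50% of all genes tested were lower, and 3 were lower with upper-quartile, quantile or median-centred scaling. BAN (AT1G61720), a seed coat enzyme gene of tannin synthesis, had values of 4.49 and 0 in bent and 0 and 1.96 in mature, against 172 and 252 in heart and 19.7 and 48.7 in torpedo. The endosperm regulator MYB118 (AT3G27785) had a change of -3.94 with the late stages pooled, and the seed coat genes ATS (AT5G42630), ARA12 (AT5G67360) and MUM4 (AT1G53500) had changes of -2.08, -2.01 and -1.43. The fall of MUM4 was lost under every scaling but equal totals, and with edgeR and DESeq2.

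Both late stages were far from heart and torpedo, and mature embryos were the farther. Set directly against bent embryos, mature ones had 3420 genes higher (18.2%) and 7521 lower (40.1%). In the bent stage 1906 genes were higher (10.2% of those tested) and 5334 lower (28.5%), and in the mature stage 3132 were higher (16.7%) and 9882 lower (52.7%), by limma with Benjamini-Hochberg adjustment at 0.05. Higher in both were 872 genes (4.65%), and lower in both were 3895 (20.8%). A further 544 genes (2.90%) were higher in bent and lower in mature, and 406 (2.17%) were lower in bent and higher in mature. With the late stages pooled, 2581 genes were higher (13.8%) and 9369 lower (50%). The bent and mature comparisons share the heart and torpedo libraries, so these counts of shared direction are descriptions. The adjusted p-values of the bent and mature changes chose the genes of these classes, and are given for them as descriptions too. Without bent replicate 2 the bent stage had 1567 genes higher and 2846 lower.

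The balance of rises and falls depended on the scaling, since the median log2 change of all tested genes was -0.46 in bent and -1.14 in mature. With each library centred on its median 1845 genes were higher in both late stages and 1621 lower, and edgeR on the recovered reads gave 1664 and 1638. Of the 872 genes higher in both, 840 (96.3%) kept that call under every scaling, edgeR and DESeq2, but of the 3895 lower in both only 1310 (33.6%) did. No gene of either class turned to the other under any of them. Without bent replicate 2 the counts were 697 higher in both and 2125 lower in both, of which 664 and 2058 were shared with the full set. Against controls that share no library, bent minus heart and mature minus torpedo gave 731 and 2772, and bent minus torpedo and mature minus heart gave 625 and 2936. Under these 2 pairings the genes higher in bent and lower in mature numbered 1415 and 112, and those lower in bent and higher in mature 671 and 203.

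**Figure D1:**
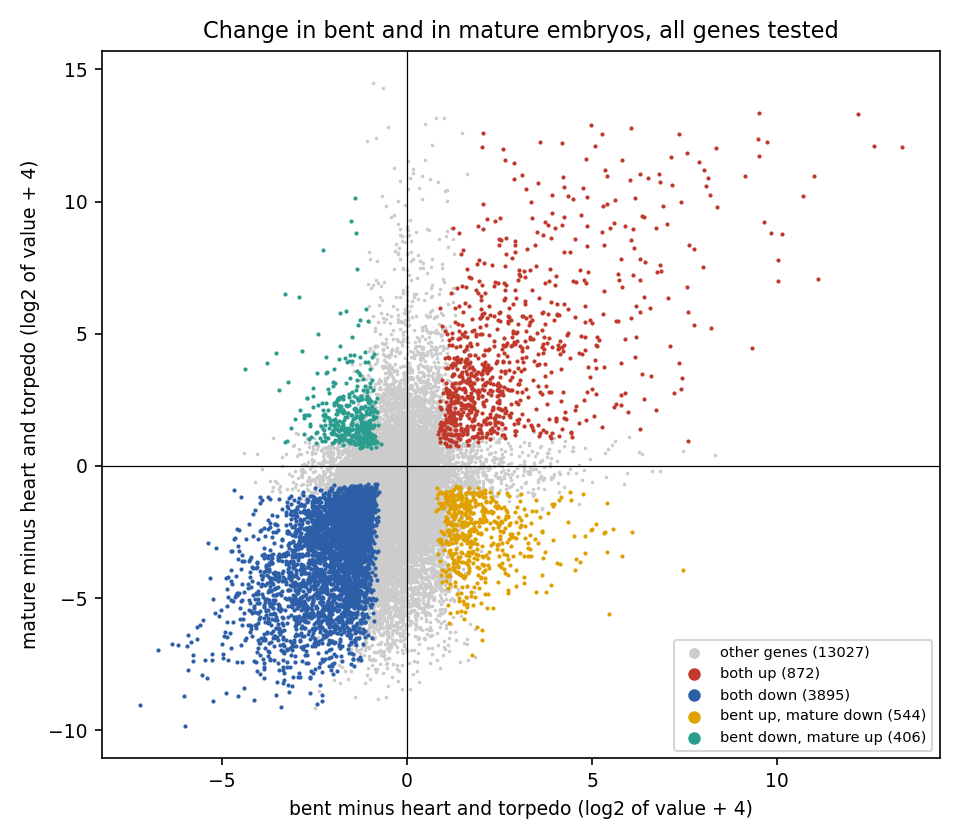
Each point is 1 of 18744 genes, placed by its log2 change in bent (horizontal axis) and in mature embryos (vertical axis), both against heart and torpedo. The 872 genes higher in both lie at the upper right and the 3895 lower in both at the lower left, with 544 and 406 genes in the opposite corners.

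Among the 872 genes higher in both late stages, 416 were higher in mature than in bent embryos, 87 were lower in mature and 369 did not differ past the threshold. The median change was 2.33 in bent and 3.52 in mature. For 726 of them all 4 late libraries lay above all 4 earlier ones, which held for 4.87% of all genes tested. Among the 3895 genes lower in both, 1823 were lower in mature than in bent, 97 were higher and 1975 did not differ past the threshold, with medians of -1.80 and -2.98. In 3296 of these all 4 late libraries lay below all 4 earlier ones, against 23.1% of all genes tested. Both classes were chosen from these same libraries, so a larger share without overlap follows in part from the choice and is a description.

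The genes that rose most in both late stages were cruciferins, LEA proteins and a protein of the oil body, together with 4 genes of other annotation. Positions are those of build TAIR10.1. Cruciferins are the globulin storage proteins of the Arabidopsis seed. CRU3 (AT4G28520, cruciferin 3, chr4:14087556-14089796, plus strand) had values of 390035 and 1009962 in bent and 293512 and 224996 in mature, against 10.6 and 9.01 in heart and 144 and 451 in torpedo. Its log2 change was 13.36 (SE 0.44, adjusted p = 9.34e-11) in bent and 12.07 (SE 0.44, adjusted p = 5.16e-11) in mature embryos. CRU2 (AT1G03880, cruciferin 2, chr1:985751-988146, plus strand) stood at 242715 and 296063 in bent and 225818 and 160531 in mature, against 12.1 and 4.0 in heart and 134 and 182 in torpedo. It rose by 12.62 in bent and 12.12 in mature. AT1G03890 (chr1:989198-991020, plus strand), annotated as a cupin like the cruciferins, begins downstream of CRU2 on the same strand. It had values of 73789.99 and 71495 in bent and 160377 and 155412 in mature, against 0 and 2.0 in heart and 13.1 and 139 in torpedo. In each of these 3 genes the late libraries lay far above all earlier ones, and both torpedo libraries were above both heart ones.

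Genes of drying-protective and oil body proteins were also among the 10 largest shared rises. LEA (AT2G21490, annotated as dehydrin LEA, chr2:9205990-9207125, minus strand) had values of 22029 and 19497 in bent and 14055 and 15765 in mature, against 0 and 14 in heart and 6.56 and 27.9 in torpedo. Its log2 changes were 10.70 (SE 0.54, adjusted p = 5.03e-09) in bent and 10.22 (SE 0.54, adjusted p = 9.82e-10) in mature, and it did not differ between the late stages past the threshold. AT3G17520 (chr3:5999174-6000447, minus strand), a late embryogenesis abundant (LEA) family gene, was at 5990.4 and 4803 in bent and 51084 and 31392 in mature, against 0 and 0 in heart and 6.56 and 14.9 in torpedo. Unlike LEA it rose again between bent and mature, by 2.90 (SE 0.47, adjusted p = 9.23e-05). ATPXG2 (AT5G55240, peroxygenase 2, chr5:22405896-22407351, plus strand), a caleosin-type protein of the oil body, had values of 9422 and 11455 in bent and 56761 and 40501 in mature, against 0 and 0 in heart and 39.4 and 54.5 in torpedo. It too was higher in mature than in bent embryos, by 2.21 (SE 0.41, adjusted p = 2.66e-04).

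The remaining 4 of the 10 largest shared rises were AT1G04560, AT5G45690, AT2G05580 and AT4G31830. AT1G04560 (chr1:1244947-1246059, plus strand), of the AWPM-19-like membrane protein family, had values of 31988 and 49438 in bent and 42114 and 35307 in mature, against 6.04 and 3.0 in heart and 19.7 and 83.8 in torpedo. Its mature minus bent difference was -0.04 (SE 0.55, adjusted p = 0.979), which did not pass the threshold. AT5G45690 (chr5:18534999-18536316, minus strand), a DUF1264 protein, stood at 6380.3 and 30625 in bent and 78667 and 79924 in mature, against 9.06 and 6.01 in heart and 13.1 and 28.6 in torpedo. Its bent libraries differed several-fold, and both lay below both mature ones. AT2G05580 (chr2:2055519-2056745, plus strand), a glycine-rich protein, had 3632 and 8579 in bent and 127401 and 52438 in mature, against 4.53 and 4.0 in heart and 0 and 9.09 in torpedo. AT4G31830 (chr4:15400604-15401225, minus strand), annotated as uncharacterized, was at 4685 and 4388 in bent and 1794 and 6418 in mature, against 1.51 and 0 in heart and 0 and 7.79 in torpedo. No late library overlapped an earlier one in any of the 10 genes, as the naming rule requires.

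**Figure D2:**
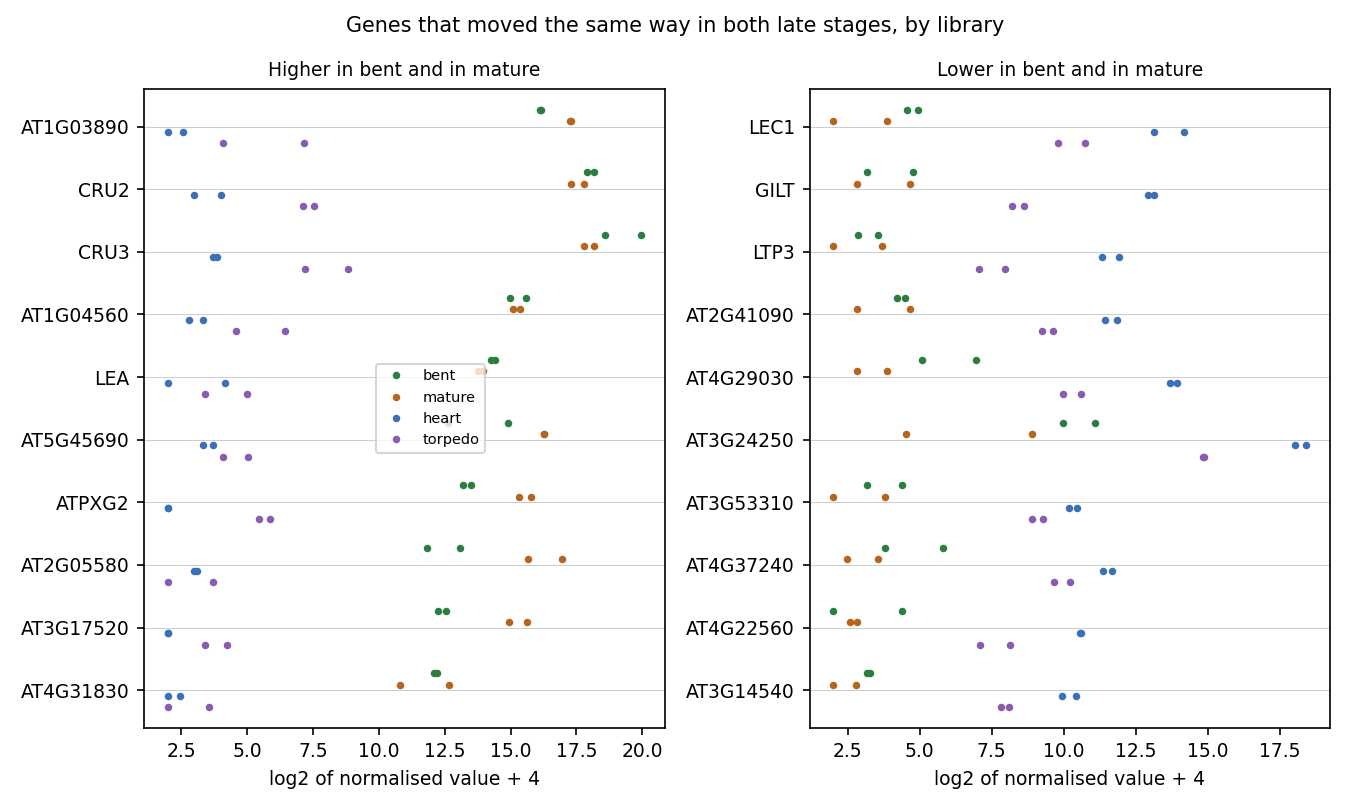
Each point is a library, placed by its log2 of normalised value + 4, for the 10 genes higher (left) and the 10 lower (right) in both late stages with the largest changes, 2 points per stage. Bent and mature libraries do not overlap heart and torpedo libraries in any of the 20 genes, as the naming rule requires.

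As a group, storage protein genes were on in both late stages and highest in bent. All 8 tested members were higher in bent and 6 of them in mature, where 10.2% and 16.7% of all genes tested were. None was lower in either, and the median pooled change was 8.98, against -0.81 for all genes tested. The list summed to 7.65% and 10.5% of a library in bent and 4.03% and 3.34% in mature embryos, against 0.00479% and 0.00351% in heart and 0.149% and 0.329% in torpedo. The 2S albumin genes were not analysed here. CRA1 (AT5G44120), the cruciferin A gene, had values of 268719 and 234140.4 in bent and 97493 and 99554 in mature, against 16.6 and 17 in heart and 3309 and 1793 in torpedo. PAP85 (AT3G22640), a vicilin-like globulin gene, was at 144428 and 88729.7 in bent and 15776 and 12162 in mature, against 4.53 and 0 in heart and 1683 and 2430.3 in torpedo. In mature it was lower than in bent, with a difference of -3.03 (SE 0.49, adjusted p = 7.97e-05). The 2 members that were not called in mature were AT4G36700 and AT2G18540, both cupins. AT4G36700 had 300186 and 301701 in bent and 2764 and 3814 in mature, against 850 and 632 in heart and 23117 and 58262 in torpedo. AT2G18540 was at 21085 and 7565 in bent and 37.5 and 62.6 in mature, against 3.02 and 2.0 in heart and 138 and 404 in torpedo. In both the bent libraries lay above all others and the mature libraries lay inside the range of heart and torpedo.

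Oil bodies are droplets of stored oil coated with oleosins, caleosins and steroleosins. Of 11 tested members 10 were higher in both late stages, where 4.65% of all genes tested were. The median change was 5.88 in bent and 4.46 in mature. OLEO1 (AT4G25140), an oleosin, reached 651328 and 683327 in bent and 101499 and 151604 in mature, against 299 and 338 in heart and 26226 and 32872 in torpedo. ATS1 (AT4G26740), a caleosin, had 68361 and 65855 in bent and 167999 and 229702 in mature, against 403 and 337 in heart and 1886 and 2109 in torpedo. These differed between the late stages in opposite directions, ATS1 by 1.55 (SE 0.36, adjusted p = 0.00158) and OLEO1 by -2.43 (SE 0.41, adjusted p = 1.12e-04). HSD1 (AT5G50600), a steroleosin, was at 14818 and 12866 in bent and 1037 and 689 in mature, against 0 and 0 in heart and 0 and 21.4 in torpedo. OLEO3 (AT5G51210) was the single member that moved opposite ways. It had 146798 and 87192 in bent and 1126 and 1276 in mature, against 4573 and 3152 in heart and 43747 and 39562 in torpedo, with changes of 3.17 in bent and -3.39 in mature. Within the list 7 members were lower and 3 higher in mature than in bent embryos.

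Genes of LEA and desiccation proteins split in time. Of 31 tested, 15 were higher in bent and 25 in mature, 15 in both, and 2 were lower in both. The shares of all genes tested were 10.2% higher in bent, 16.7% in mature and 4.65% in both, and 20.8% lower in both. The median change was 1.48 in bent and 10.22 in mature, and 24 members were higher in mature than in bent. Their sum was 0.337% and 0.374% of bent and 12.4% and 10.6% of mature libraries, against 0.0138% and 0.0132% in heart and 0.0223% and 0.0247% in torpedo. AT5G44310 had 10113 and 7873 in bent and 164642 and 72099 in mature, against 7.55 and 9.01 in heart and 82 and 158 in torpedo. AT4G21020 had 5145 and 15169.98 in bent and 99641 and 64221 in mature, against 13.6 and 14 in heart and 39.4 and 97.4 in torpedo. Both rose in bent and again in mature.

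A further 10 LEA genes were higher in mature only, and 3 of them are given here. GEA6 (AT2G40170), a group 1 LEA gene of the Em type, was at 2.25 and 16.6 in bent and 408115 and 315344 in mature, against 6.04 and 6.01 in heart and 13.1 and 55.8 in torpedo. Its change was -0.66 (SE 0.54, adjusted p = 0.363) in bent and 14.29 (SE 0.54, adjusted p = 6.21e-11) in mature. M10 (AT2G41280), another LEA gene, had 0 and 0 in bent and 212836 and 140587 in mature, against 0 and 1.0 in heart and 0 and 36.4 in torpedo. RAB18 (AT5G66400), a dehydrin responsive to abscisic acid, had 2038 and 2592 in bent and 631871 and 382216 in mature, against 785 and 1077 in heart and 1849.9 and 1692 in torpedo. These 3 genes did not pass the test in bent. The 2 members lower in both were COR15B (AT2G42530) and ERD10, known as cold- and dehydration-responsive genes of vegetative tissue. ERD10 (AT1G20450) had 139 and 63 in bent and 4.69 and 5.87 in mature, against 285 and 166 in heart and 380.5 and 552 in torpedo.

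Heat shock proteins, chaperones that hold or refold unfolded proteins, followed the later course. Of 16 tested genes 14 were higher in mature and 4 in bent, those 4 being higher in both (AT2G29500, HSP23.6-MITO, AT1G52560 and HSP101). The shares of all genes tested were 16.7% higher in mature, 10.2% in bent and 4.65% in both. HSP17.6A (AT5G12030) and HSP17.6II (AT5G12020) were lower in bent. The list summed to 0.0128% and 0.012% of bent and 2.62% and 1.90% of mature libraries, against 0.00462% and 0.00435% in heart and 0.00727% and 0.007% in torpedo. HSP17.4 (AT3G46230) had values of 5.62 and 215 in bent and 323791 and 183616 in mature, against 83 and 9.01 in heart and 6.56 and 39 in torpedo. Its change was 0.78 (SE 0.96, adjusted p = 0.555) in bent and 13.15 (SE 0.96, adjusted p = 1.90e-08) in mature, and its bent libraries differed widely. AT2G29500 had 197 and 194 in bent and 16208 and 11407 in mature, against 10.6 and 13 in heart and 108 and 54.5 in torpedo, and rose in both. HSP23.6-MITO (AT4G25200), a mitochondrial member, had 0 and 174 in bent and 1722 and 669 in mature, against 0 and 0 in heart and 0 and 0.649 in torpedo. Its call in bent rests on 1 of the 2 libraries. AT1G53540 was at 0 and 3.31 in bent and 13649 and 7888 in mature, against 6.04 and 0 in heart and 6.56 and 9.09 in torpedo. HSFA9 (AT5G54070), a seed heat shock factor known to control such genes, had 0 and 0 in bent and 1748 and 1499 in mature, against 0 and 0 in heart and 0 and 1.95 in torpedo. Both genes were at or near 0 in all but the mature libraries.

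**Figure D3:**
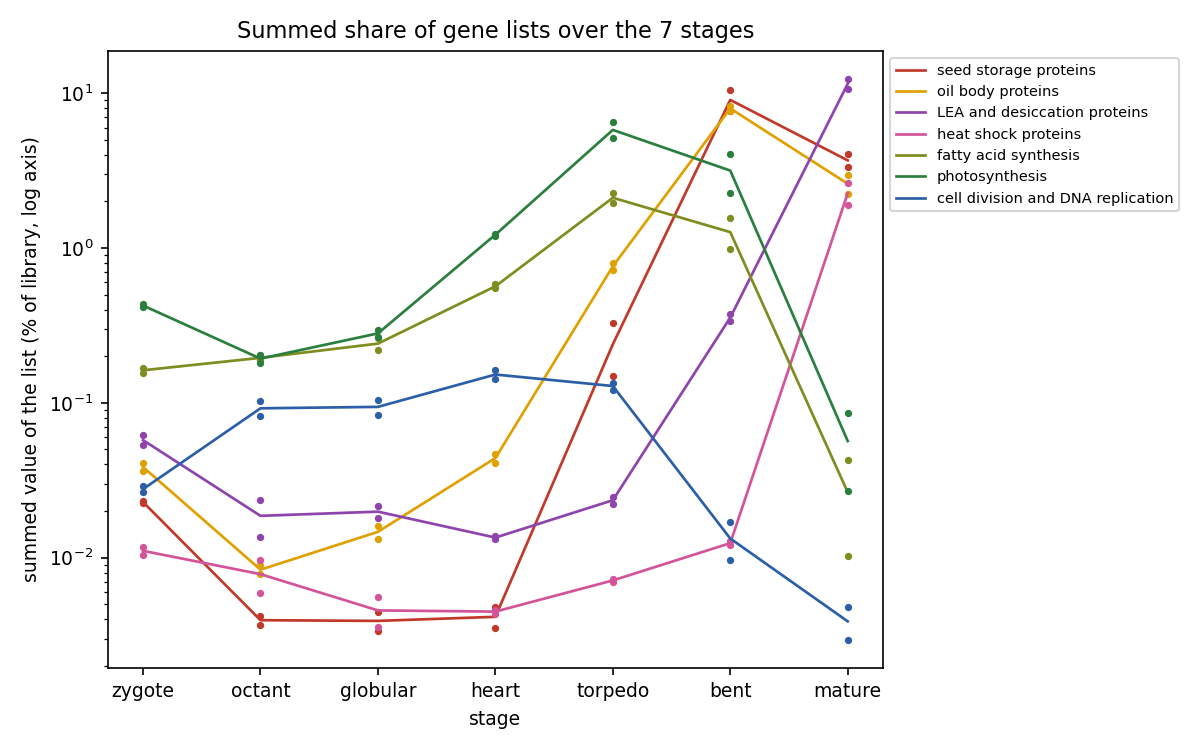
Summed normalised values of 7 gene lists are shown as a percentage of the library on a log axis for all 7 stages in order, with a point per library and a line through stage means. Storage and oil body lists peak in bent, LEA and heat shock lists in mature, photosynthesis and fatty acid lists in torpedo, and the cell division list is lower in bent and mature than in heart and torpedo.

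The transcriptional regulators of maturation did not move together. Of 20 tested, 5 were higher and 12 lower with the late stages pooled, near the 50% of all genes tested that were lower, and with median-centred values 7 were higher and 6 lower, and the median was -1.19. LEC1 (AT1G21970, chr1:7727577-7729649, minus strand), a histone-fold subunit that acts early in the network, had the largest shared fall of all genes by the naming rule. Its values were 27 and 19.9 in bent and 0 and 10.8 in mature, against 9022 and 18665 in heart and 1712 and 891 in torpedo. The change was -7.20 (SE 0.48, adjusted p = 5.86e-08) in bent and -9.03 (SE 0.48, adjusted p = 9.64e-10) in mature. LEC2 (AT1G28300), a B3-domain regulator, was at 11.2 and 9.94 in bent and 0 and 2.93 in mature, against 249 and 157 in heart and 171 and 182 in torpedo. In both genes every late library lay below every earlier one, and mature was lower than bent.

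Higher in both late stages were AGL67, DOG1 and ABI5. DOG1 (AT5G45830), the major dormancy gene, had values of 1968 and 1886 in bent and 1552 and 1278 in mature, against 0 and 0 in heart and 16.4 and 6.49 in torpedo. Its change was 7.98 (SE 0.49, adjusted p = 3.38e-08) in bent and 7.53 (SE 0.49, adjusted p = 7.47e-09) in mature. AGL67 (AT1G77950), a MADS-box gene, was at 854 and 1056 in bent and 1901 and 1343 in mature, against 0 and 0 in heart and 0 and 4.54 in torpedo. ABI5 (AT2G36270), a bZIP factor of the abscisic acid response, had 169 and 187 in bent and 2129 and 1583 in mature, against 31.7 and 16 in heart and 32.8 and 58.4 in torpedo. ABI5 was higher again in mature than in bent, by 3.34 (SE 0.61, adjusted p = 2.48e-04), which DOG1 and AGL67 were not. FUS3 and ABI3, B3-domain regulators like LEC2, took a different course. FUS3 (AT3G26790) had 3153 and 2499 in bent and 189 and 151 in mature, against 1215 and 1111 in heart and 1732 and 2532 in torpedo. Its change was 0.85 (SE 0.44, adjusted p = 0.141) in bent and -3.18 (SE 0.44, adjusted p = 1.04e-05) in mature. ABI3 (AT3G24650) had 6353 and 3559.7 in bent and 476 and 2043 in mature, against 2770.4 and 2743 in heart and 3880.1 and 4881 in torpedo. Its mature libraries differed several-fold, and the change there was -1.81 (SE 0.45, adjusted p = 0.00216). WRI1 (AT3G54320), which activates fatty acid synthesis genes, had 5124 and 2125 in bent and 1.56 and 97.8 in mature, against 1203 and 1620.4 in heart and 5205 and 7216 in torpedo. FUS3, ABI3 and WRI1 did not pass the test in bent and were lower in mature.

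Genes of abscisic acid metabolism and signalling were also mixed. Of 17 tested, 7 were higher and 5 lower with the late stages pooled, and 10 and 2 with median-centred values. Of all genes tested 13.8% were higher and 50% lower with the late stages pooled. AHG1 (AT5G51760), a seed phosphatase that restrains abscisic acid signalling, had 33.7 and 72.9 in bent and 8835 and 18504 in mature, against 3.02 and 1.0 in heart and 0 and 7.14 in torpedo. It was higher by 3.10 in bent and 10.99 in mature. CYP707A2 (AT2G29090), an enzyme of abscisic acid breakdown, was at 30.3 and 9.94 in bent and 3396 and 1213 in mature, against 19.6 and 11 in heart and 0 and 7.79 in torpedo. It was called in mature and not in bent. NCED3 (AT3G14440), an enzyme of its synthesis, had 1.12 and 0 in bent and 11 and 15.7 in mature, against 175 and 325 in heart and 59 and 39.6 in torpedo. NCED3 fell in both, but with quantile normalization 0 genes of this list were lower in both. CYP707A3 (AT5G45340), a further breakdown enzyme, had 30.3 and 19.9 in bent and 67.3 and 80.2 in mature, against 519 and 99.1 in heart and 141 and 269 in torpedo. Its pooled fall, -2.19 (SE 0.44, adjusted p = 5.18e-04), was not called with quantile normalization.

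Sequences before the annotated start were examined because storage and LEA promoters are known to carry RY (CATGCA) and ABRE (ACGTG) elements. The following 250-base windows end at the base before the annotated start (build TAIR10.1, RefSeq annotation), 5′ to 3′ along the gene's strand. They belong to 4 genes higher in both late stages and 2 genes lower in both. They were chosen to show windows with and without these letters, and do not represent the genes of either direction. Capitals mark RY, ABRE core, telo box (AAACCCTA) and site II (TGGGCC) letters on either strand.
CRU3 (AT4G28520), chr4:14087306-14087555, plus strand: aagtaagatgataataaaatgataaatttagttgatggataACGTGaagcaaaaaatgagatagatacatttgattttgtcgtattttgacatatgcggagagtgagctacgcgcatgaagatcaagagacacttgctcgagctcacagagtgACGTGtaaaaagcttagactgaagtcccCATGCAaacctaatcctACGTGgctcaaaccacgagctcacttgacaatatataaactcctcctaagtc
OLEO1 (AT4G25140), chr4:12900180-12900429, plus strand: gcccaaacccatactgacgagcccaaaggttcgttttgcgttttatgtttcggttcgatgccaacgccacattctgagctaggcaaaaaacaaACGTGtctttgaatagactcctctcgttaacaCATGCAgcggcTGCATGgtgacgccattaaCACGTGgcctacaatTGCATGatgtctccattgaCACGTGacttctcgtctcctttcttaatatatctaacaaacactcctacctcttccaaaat
AT1G04560, chr1:1244697-1244946, plus strand: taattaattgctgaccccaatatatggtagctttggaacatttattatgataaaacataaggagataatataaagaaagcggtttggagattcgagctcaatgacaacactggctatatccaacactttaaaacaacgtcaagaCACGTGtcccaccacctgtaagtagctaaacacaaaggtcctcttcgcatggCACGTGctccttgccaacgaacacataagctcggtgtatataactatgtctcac
LEA (AT2G21490), chr2:9207126-9207375, minus strand: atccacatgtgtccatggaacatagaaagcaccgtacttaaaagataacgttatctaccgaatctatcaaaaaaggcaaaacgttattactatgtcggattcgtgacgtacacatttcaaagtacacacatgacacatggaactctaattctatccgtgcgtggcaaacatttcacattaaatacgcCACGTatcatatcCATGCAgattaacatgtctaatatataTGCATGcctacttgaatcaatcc
LEC1 (AT1G21970), chr1:7729650-7729899, minus strand: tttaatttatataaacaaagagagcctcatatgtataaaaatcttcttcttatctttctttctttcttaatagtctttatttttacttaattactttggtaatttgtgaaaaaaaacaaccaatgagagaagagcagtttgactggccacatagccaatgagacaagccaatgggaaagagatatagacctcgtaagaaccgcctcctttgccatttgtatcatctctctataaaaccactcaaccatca
PCNA1 (AT1G07370), chr1:2262787-2263036, plus strand: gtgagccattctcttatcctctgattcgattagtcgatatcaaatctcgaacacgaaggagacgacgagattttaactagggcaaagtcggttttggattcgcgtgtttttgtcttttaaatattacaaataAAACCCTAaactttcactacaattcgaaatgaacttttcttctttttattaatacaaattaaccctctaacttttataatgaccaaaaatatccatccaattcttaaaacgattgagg

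The CRU3 window holds 1 RY and 3 ABRE core matches, that of OLEO1 3 and 5, and that of LEA 2 and 1. The ABRE core matches of OLEO1 include both strands of 2 G-boxes. AT1G04560 has 4 ABRE core matches, of which both strands of 2 G-boxes (CACGTG, which contains the core on each strand) supply all. LEC1 has none of the 6 motifs searched, and PCNA1 has 1 telo box. Windows not printed here include cases the other way round. CRU2, higher in both late stages, has none of the 6 motifs. AT3G24250 and AT3G53310, lower in both, have 3 RY matches each, which overlap within a single short stretch. GILT, also lower in both, has 2 ABRE core matches, supplied by both strands of 1 G-box. Over all genes tested with a window, RY was found on either strand in 8.04% of 18725, the ABRE core in 23.4% and the G-box in 7.47%. Among the 872 genes higher in both late stages RY was found in 15%, the ABRE core in 39.6% and the G-box in 17.2%. Among 3892 windows of genes lower in both these shares were 7.14%, 22.2% and 6.60%. Site II was found in 13.2% of the genes higher in both, 20.3% of those lower in both and 16.3% of all. The telo box was found in 2.29%, 4.37% and 3.63%, and the heat shock element (GAANNTTC) in 9.06%, 9.51% and 9.13%. A match is a description of letters, not a bound site.

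Genes known for breaking down reserves after germination were in part higher in the late embryo. Of 11 tested, 8 were higher in mature and 3 in bent, those 3 in both. The shares of all genes tested were 16.7% higher in mature, 10.2% in bent and 4.65% in both. With the stages pooled 6 genes were higher and 1 lower (9 and 0 with median-centred values), where 13.8% and 50% of all genes tested were. ICL (AT3G21720), isocitrate lyase of the glyoxylate cycle, had 3669.9 and 6199.6 in bent and 6737 and 7811 in mature, against 7.55 and 8.01 in heart and 190.2 and 145 in torpedo. Its change was 6.74 (SE 0.34, adjusted p = 4.71e-09) in bent and 7.34 (SE 0.34, adjusted p = 2.58e-10) in mature. MLS (AT5G03860), malate synthase of the same cycle, had 1887 and 1819.6 in bent and 6350.3 and 9586 in mature, against 33.2 and 68.1 in heart and 226 and 251 in torpedo. In both enzymes torpedo was above heart. CSY3 (AT2G42790), peroxisomal citrate synthase, was at 1179 and 767 in bent and 2656 and 2745 in mature, against 447 and 429 in heart and 374 and 298 in torpedo. It was higher in both late stages, with smaller changes of 1.31 in bent and 2.81 in mature. LACS7 (AT5G27600), a peroxisomal acyl-CoA synthetase, had 107 and 131 in bent and 167 and 139 in mature, against 30.2 and 46 in heart and 45.9 and 44.8 in torpedo. Its pooled rise, 1.61 (SE 0.47, adjusted p = 0.0074), was not called with a pseudocount of 1. PCK1 (AT4G37870), phosphoenolpyruvate carboxykinase, had 1291 and 1195 in bent and 5889 and 6082 in mature, against 8500 and 7781 in heart and 2575 and 2574 in torpedo. Its mature libraries lay between the torpedo and heart ones. PCK1 was the pooled fall, which was not called with upper-quartile scaling or median-centring.

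Of 7 chlorophyll breakdown genes 5 were higher and 1 lower in mature, where 16.7% and 52.7% of all genes tested were. In bent 2 were higher and 0 lower, where 10.2% and 28.5% of all genes tested were. In mature 4 were higher and 2 lower than in bent, beside 18.2% and 40.1% of all genes tested. AT4G11910, annotated as a STAY-GREEN-like protein, had 120.2 and 467 in bent and 7691 and 9865 in mature, against 6.04 and 11 in heart and 9.84 and 9.09 in torpedo. NYE1 (AT4G22920), the stay-green magnesium dechelatase, had 429 and 369.6 in bent and 9339.98 and 7167 in mature, against 270.2 and 144 in heart and 226 and 197 in torpedo. Its change was 0.95 (SE 0.33, adjusted p = 0.0354) in bent and 5.30 (SE 0.33, adjusted p = 5.25e-09) in mature, and these 2 genes were the ones called in bent. PPH (AT5G13800), pheophytinase, was at 746 and 870.03 in bent and 10085 and 8186 in mature, against 848 and 658 in heart and 692 and 499 in torpedo. NYC1 (AT4G13250), a chlorophyll b reductase, was at 1947 and 1467 in bent and 27968 and 13147 in mature, against 1581 and 1145 in heart and 1587 and 2006 in torpedo. Their bent libraries lay close to the heart and torpedo ones.

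Antioxidant genes went both ways, 5 higher and 9 lower of 16 with the late stages pooled (50% of all genes tested were lower), and 7 and 6 with median-centred values. PER1 (AT1G48130), the seed 1-Cys peroxiredoxin, had 16187 and 18131 in bent and 8356 and 8559 in mature, against 0 and 0 in heart and 75.4 and 93.5 in torpedo. VTE1 (AT4G32770), tocopherol cyclase of vitamin E synthesis, was at 4025 and 3180.2 in bent and 2606 and 3277 in mature, against 320.1 and 250.2 in heart and 597 and 456 in torpedo. Both were higher in both late stages. APX1 (AT1G07890), cytosolic ascorbate peroxidase, had 2980.01 and 1535 in bent and 89.2 and 170.2 in mature, against 14095 and 18968 in heart and 17715 and 8108 in torpedo, and was lower in both. FSD1 (AT4G25100), an iron superoxide dismutase, was at 10221 and 6823 in bent and 12.5 and 143 in mature, against 6051 and 11259 in heart and 12359 and 8256 in torpedo. It was lower in mature and not called in bent.

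Raffinose-family sugars are stored in dry seeds, and galactinol synthase genes of their synthesis were higher in mature and not in bent. Of the 6 genes tested 3 were higher and 3 lower in mature, 2 were lower in both and none was higher in bent. The number lower in mature is near the share of all genes tested, 52.7%. Higher in mature were 16.7% of all genes tested, and lower in both were 20.8%. GolS1 (AT2G47180), galactinol synthase 1, had 0 and 11.6 in bent and 120946 and 59117 in mature, against 24.2 and 7.01 in heart and 6.56 and 20.1 in torpedo. GolS2 (AT1G56600) had 16.9 and 8.29 in bent and 3669 and 3619 in mature, against 9.06 and 2.0 in heart and 3.28 and 1.95 in torpedo. Both galactinol synthases were low in bent, as in the earlier stages. MIPS3 (AT5G10170), inositol phosphate synthase 3, had 31.5 and 51.4 in bent and 3.13 and 15.7 in mature, against 2209 and 4844 in heart and 1394 and 934 in torpedo. DIN10 (AT5G20250), a raffinose synthase family gene, had 62.9 and 43.1 in bent and 3.13 and 13.7 in mature, against 349 and 294 in heart and 561 and 364 in torpedo. These were the 2 genes lower in both.

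The largest shared falls after LEC1 were in genes higher in heart than in torpedo. AT3G24250 (chr3:8786689-8787391, plus strand), a glycine-rich protein, had 2179 and 993 in bent and 18.8 and 478 in mature, against 268583 and 348307 in heart and 29079.5 and 29879 in torpedo. Its change was -6.01 (SE 0.82, adjusted p = 5.62e-05) in bent and -9.82 (SE 0.82, adjusted p = 6.28e-08) in mature. AT4G29030 (chr4:14307195-14308022, plus strand), a putative membrane lipoprotein, had 119 and 29.8 in bent and 3.13 and 10.8 in mature, against 13173 and 15502 in heart and 1532 and 997 in torpedo. In these 2 genes mature was also lower than bent. GILT (AT4G12960, chr4:7583239-7584759, plus strand), a thiol reductase family gene, had 23.6 and 4.97 in bent and 3.13 and 21.5 in mature, against 7798 and 8909 in heart and 289 and 389.6 in torpedo. LTP3 (AT5G59320, chr5:23928954-23929816, plus strand), a lipid transfer protein gene, was at 7.87 and 3.31 in bent and 0 and 8.80 in mature, against 3895 and 2547 in heart and 243 and 128 in torpedo. In each of these 4 genes both heart libraries exceeded both torpedo ones, which exceeded every late library.

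A pair of genes annotated as DNA-binding regulators was among the 10. AT3G53310 (chr3:19766655-19768786, minus strand), a B3-domain factor, had 16.9 and 4.97 in bent and 0 and 9.78 in mature, against 1172 and 1397 in heart and 476 and 625 in torpedo. AT4G37240 (chr4:17524461-17525294, plus strand), annotated as a transcriptional regulator, had 51.7 and 9.94 in bent and 1.56 and 7.83 in mature, against 3287 and 2606 in heart and 800.3 and 1179.7 in torpedo. Both were low in all late libraries. AT2G41090 (chr2:17135347-17136999, plus strand), a calcium-binding EF-hand protein, had 14.6 and 18.2 in bent and 3.13 and 21.5 in mature, against 3691 and 2732 in heart and 600.2 and 782 in torpedo. AT3G14540 (chr3:4881320-4884012, minus strand), a terpenoid cyclase family gene, had 5.62 and 4.97 in bent and 0 and 2.93 in mature, against 1359 and 985 in heart and 269 and 221 in torpedo. AT4G22560 (chr4:11880080-11881088, plus strand), annotated as a surface glycoprotein, had 16.9 and 0 in bent and 3.13 and 1.96 in mature, against 1549 and 1492 in heart and 279 and 133 in torpedo. The log2 changes of these 5 genes ran from -6.19 to -5.85 in bent and from -7.70 to -6.39 in mature. All 10 shared falls held under every scaling, edgeR and DESeq2.

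Genes of cell division and DNA replication fell together in both late stages. A further 18 listed genes were not analysed here. Of 19 tested, 18 were lower in both (17 with median-centred values), where 20.8% of all genes tested were. The median was -3.68 in bent and -6.31 in mature, against -0.46 and -1.14 for all genes tested. PCNA1 (AT1G07370), the sliding clamp of replication, had 144 and 59.7 in bent and 0 and 57.7 in mature, against 4478 and 6499.6 in heart and 3096 and 3115 in torpedo. Its change was -5.40 (SE 0.73, adjusted p = 5.05e-05) in bent and -8.03 (SE 0.73, adjusted p = 1.43e-07) in mature. MCM4 (AT2G16440), a subunit of the replicative helicase, was at 102 and 31.5 in bent and 6.26 and 29.3 in mature, against 2702 and 2449 in heart and 2004 and 1092 in torpedo. MCM3 (AT5G46280), another subunit, was at 78.7 and 49.7 in bent and 0 and 8.80 in mature, against 1167 and 1029 in heart and 1459.6 and 1099.9 in torpedo. PRL (AT4G02060), the MCM7 subunit, was at 113 and 71.3 in bent and 1.56 and 15.7 in mature, against 1239.5 and 1426 in heart and 1745 and 1571 in torpedo. In all 4 genes every late library lay below every earlier one, and mature was lower than bent. CDC2 (AT3G48750), the cyclin-dependent kinase CDKA, was the exception, with 401 and 570.1 in bent and 208 and 260.2 in mature, against 494 and 460.4 in heart and 407 and 698 in torpedo. Its change was -0.08 (SE 0.36, adjusted p = 0.895) in bent and -1.10 (SE 0.36, adjusted p = 0.0128) in mature.

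**Figure D4:**
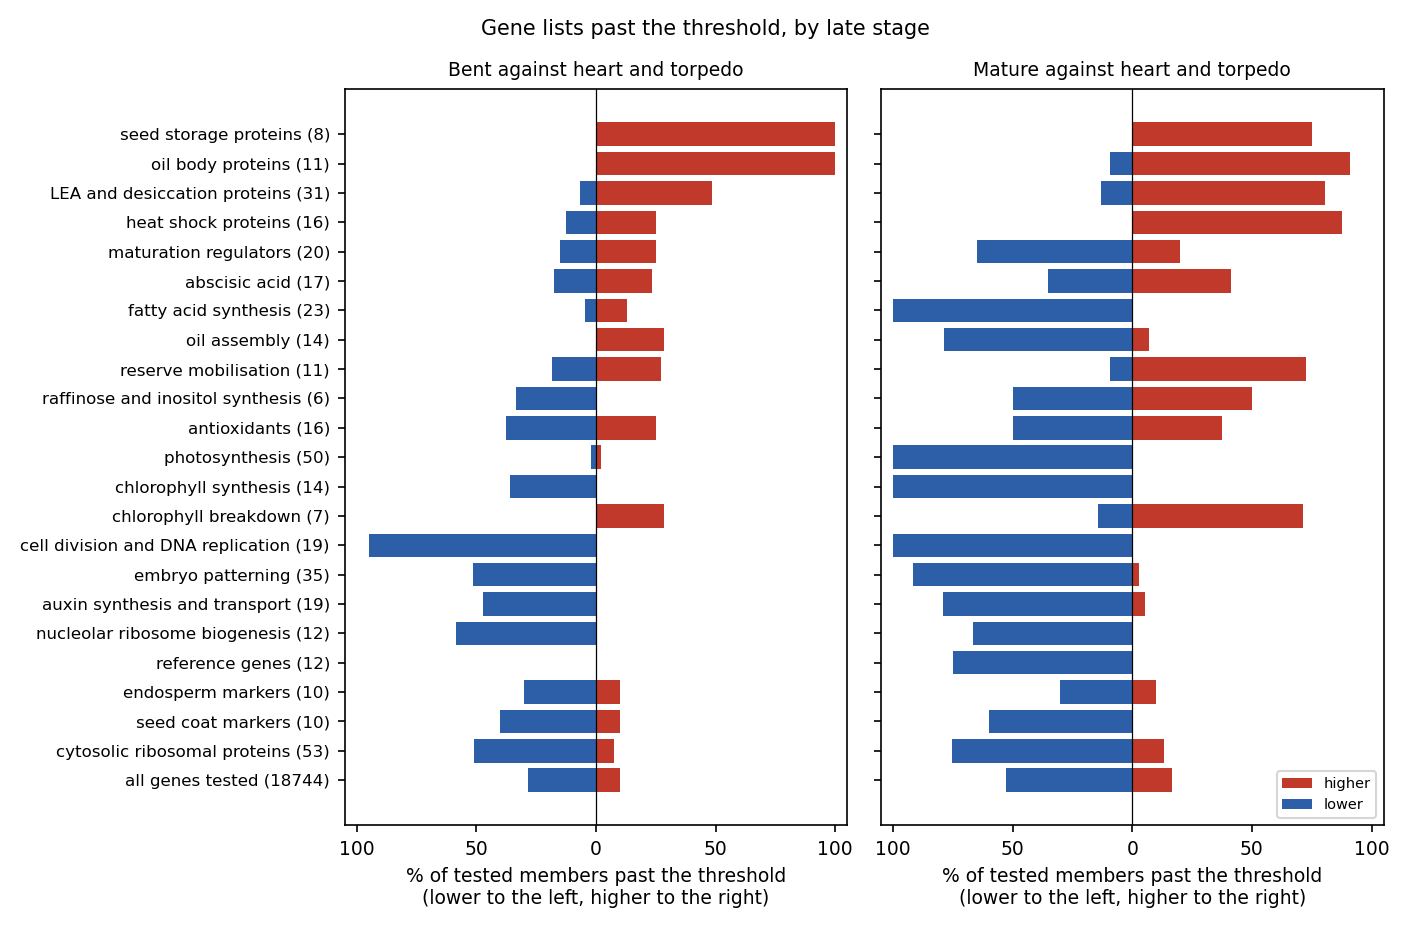
Bars give the percentage of the tested members of each list that passed the threshold, higher to the right and lower to the left, in bent (left panel) and mature embryos (right panel), with the number tested in parentheses and all genes in the bottom row. Of 50 photosynthesis genes 1 is higher and 1 lower in bent, and all are lower in mature, whereas cell division is lower in both.

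Embryo patterning genes fell in part in bent and for the most part in mature. Of 35 tested, 18 were lower in bent and 32 in mature, 16 in both (11 with median-centred values). With the stages pooled 29 were lower and 0 higher (23 and 1 with median-centred values). Of all genes tested 28.5% were lower in bent, 52.7% in mature, 20.8% in both and 50% with the stages pooled. ANT (AT4G37750), an AP2-domain gene of organ growth, had 155 and 114 in bent and 0 and 24.5 in mature, against 8067 and 6476 in heart and 2293 and 2295 in torpedo. Its change was -4.89 (SE 0.55, adjusted p = 1.05e-05) in bent and -8.58 (SE 0.55, adjusted p = 6.33e-09) in mature. MP (AT1G19850), the auxin response factor needed for the embryonic root, had 319 and 143 in bent and 0 and 28.4 in mature, against 4037 and 3166 in heart and 1453 and 1769 in torpedo. PHV (AT1G30490), which marks upper organ faces, was at 454 and 201 in bent and 42.2 and 69.5 in mature, against 4085 and 2142 in heart and 1099 and 1045 in torpedo. MNP (AT3G50870), a GATA factor, was at 131 and 28.2 in bent and 0 and 0.978 in mature, against 219 and 144 in heart and 243 and 313 in torpedo. All 4 genes were lower in both and lower in mature than in bent. WOX8 (AT5G45980), known from the basal cell lineage and suspensor, had 0 and 0 in bent and 0 and 0 in mature, against 127 and 87.1 in heart and 19.7 and 10.4 in torpedo. WOX2 (AT5G59340), a homeobox gene of the apical lineage, had 0 and 1.66 in bent and 153 and 208 in mature, against 36.2 and 59.1 in heart and 13.1 and 16.9 in torpedo. It was the single member higher in mature, by 2.57 (SE 0.48, adjusted p = 1.91e-04), while in bent its change was -2.70 (SE 0.48, adjusted p = 4.88e-04).

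Genes of auxin synthesis and transport were lower too. Of 19 tested, 9 were lower in both (6 with median-centred values), and with the stages pooled 14 were lower and 1 higher. Of all genes tested 20.8% were lower in both and 50% were lower with the stages pooled. YUC1 (AT4G32540), a flavin monooxygenase of auxin synthesis, had 6.74 and 4.97 in bent and 0 and 1.96 in mature, against 139 and 118 in heart and 125 and 131 in torpedo. LAX1 (AT5G01240), an influx carrier, had 115 and 29.8 in bent and 1.56 and 1.96 in mature, against 285 and 253 in heart and 590.4 and 378 in torpedo. Both were lower in both late stages. LAX2 (AT2G21050), a related carrier, had 1842 and 593 in bent and 0 and 56.7 in mature, against 2363 and 2626 in heart and 5159 and 4002 in torpedo, and was called in mature only. PID (AT2G34650), the kinase that directs efflux carriers, was at 1232 and 418 in bent and 11 and 15.7 in mature, against 2185 and 1491 in heart and 2391 and 1563 in torpedo. Its change was -1.38 (SE 0.39, adjusted p = 0.0127) in bent and -6.77 (SE 0.39, adjusted p = 2.52e-09) in mature. YUC2 (AT4G13260) was the single higher gene, with 5.62 and 0 in bent and 39.1 and 49.9 in mature, against 0 and 0 in heart and 13.1 and 18.2 in torpedo.

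Nucleolar genes of ribosome making were lower in part. Of 12 tested, 7 were lower in bent, 8 in mature and 5 in both (3 with median-centred values), where 28.5%, 52.7% and 20.8% of all genes tested were lower. With the stages pooled 10 were lower and 0 higher (5 and 1 with median-centred values). FIB2 (AT4G25630), fibrillarin, had 707 and 1781 in bent and 82.9 and 262 in mature, against 16911 and 17234 in heart and 6652 and 3478 in torpedo. NOP56 (AT1G56110), its partner in small nucleolar particles, had 2098 and 5250 in bent and 141 and 397 in mature, against 17877 and 28457 in heart and 10029.9 and 14041 in torpedo. Both were lower in mature than in bent. NAP57 (AT3G57150), the pseudouridine synthase, was at 1589 and 2900.1 in bent and 1902 and 1771 in mature, against 35708 and 28659.7 in heart and 7393 and 6905 in torpedo. EDA25 (AT1G72440), annotated as a CCAAT-binding factor, was at 463 and 549 in bent and 555 and 991 in mature, against 3749 and 19193 in heart and 1624 and 1788 in torpedo. These did not differ between the late stages past the threshold, NAP57 by -0.23 (SE 0.38, adjusted p = 0.652), and the heart libraries of EDA25 differed several-fold.

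The list of cytosolic ribosomal proteins was taken by gene description alone. It may hold genes named after such a family that are not subunits of the cytosolic ribosome. Of its 53 tested genes 41 were lower and 7 higher with the stages pooled (27 and 10 with median-centred values). Lower in both were 24, but with median-centred values that count was 5. Of all genes tested 50% were lower with the stages pooled and 20.8% were lower in both. AT3G56340, of the S26e family, had 3088 and 2015 in bent and 61 and 171 in mature, against 3983 and 4282 in heart and 10335 and 7523 in torpedo. AT5G02440, of the L36 family, had 59.6 and 19.9 in bent and 0 and 4.89 in mature, against 52.8 and 54 in heart and 207 and 380.5 in torpedo. In both genes the bent libraries lay below the torpedo ones and nearer to heart. AT5G46430, of the L32e family, was at 2030.5 and 2071 in bent and 102 and 179 in mature, against 2387 and 5349.6 in heart and 3198 and 8649 in torpedo, called in mature only. AT3G14595, annotated in the L18ae family, ran the other way with 1352 and 1066 in bent and 66566 and 35313 in mature, against 234 and 290.3 in heart and 321 and 158 in torpedo. Its change was 2.29 (SE 0.37, adjusted p = 2.78e-04) in bent and 7.62 (SE 0.37, adjusted p = 4.84e-10) in mature. Whether AT3G14595 encodes a subunit of the cytosolic ribosome was not checked.

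Of 12 genes often taken as constant 9 were lower in mature and 0 passed in bent, by limma at the adjusted threshold, where 52.7% of all genes tested were lower in mature. With the stages pooled 9 were lower and 0 higher (3 and 2 with median-centred values). ACT2 (AT3G18780), an actin, had 2105 and 1051 in bent and 59.5 and 425 in mature, against 3306 and 4293 in heart and 4051 and 4304 in torpedo. GAPC1 (AT3G04120), cytosolic glyceraldehyde phosphate dehydrogenase, had 20718 and 13944 in bent and 299 and 733 in mature, against 6270.1 and 9628 in heart and 43468 and 42999.9 in torpedo. AT5G60390, an elongation factor 1-alpha, had 69218 and 49232 in bent and 4756 and 8028 in mature, against 72018 and 96311 in heart and 112795 and 151558 in torpedo. Each was lowest in the mature libraries. GAPC2 (AT1G13440), with 25413 and 14921 in bent and 3861 and 4046 in mature, against 19767 and 28636 in heart and 22444 and 23398 in torpedo, lost its pooled call under upper-quartile scaling, median-centring, edgeR and DESeq2. UBQ10 (AT4G05320), a polyubiquitin, had 29198 and 27799 in bent and 31723 and 53577 in mature, against 21498 and 34648 in heart and 14963 and 23061 in torpedo. It did not pass in mature, with 0.87 (SE 0.39, adjusted p = 0.0581).

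Photosynthesis genes set the late stages apart from each other. All 50 tested genes were lower in mature, while in bent PSAD-2 (AT1G03130) was higher and RBCS2B (AT5G38420) lower, and 49 were lower in mature than in bent. The median change was 0.27 in bent and -6.82 in mature, against -0.46 and -1.14 for all genes tested. Lower in mature were 52.7% of all genes tested, and 40.1% were lower in mature than in bent. The list summed to 4.05% and 2.29% of bent libraries and 0.027% and 0.0863% of mature ones, against 1.24% and 1.20% in heart and 6.49% and 5.11% in torpedo. The bent libraries thus lay between heart and torpedo, and both mature libraries lay far below, apart from each other by more than 3-fold. LHCB5 (AT4G10340), an antenna protein of photosystem II, had 17071 and 7436 in bent and 0 and 305 in mature, against 4976 and 6871 in heart and 28683 and 23583 in torpedo. PSAF (AT1G31330), a photosystem I subunit, had 30709 and 11102 in bent and 51.6 and 647 in mature, against 34317 and 22394 in heart and 42809 and 48105 in torpedo. In both genes mature replicate 1 was far below mature replicate 2. PSBY (AT1G67740) of photosystem II was at 7239.9 and 7625 in bent and 1.56 and 141 in mature, against 18789 and 7777 in heart and 16626 and 10921 in torpedo. PSBO2 (AT3G50820), of the oxygen-evolving complex, was at 4598 and 872 in bent and 0 and 63.6 in mature, against 2523 and 1356 in heart and 8833 and 5550.05 in torpedo. The pooled fall of LHCB5 was not called with DESeq2. With the stages pooled all 50 genes were lower (41 with median-centred values), where 50% of all genes tested were.

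Some chlorophyll synthesis genes were already lower in bent. Of 14 genes tested all were lower in mature and 5 in bent, those 5 in both (3 with median-centred values). Of all genes tested 52.7% were lower in mature, 28.5% in bent and 20.8% in both, so the number lower in bent is near that share. GSA2 (AT3G48730), of aminolevulinate synthesis, had 732 and 254 in bent and 51.6 and 64.6 in mature, against 2586 and 1795 in heart and 4546 and 3696 in torpedo. POR C (AT1G03630), a protochlorophyllide oxidoreductase, was at 247 and 91.1 in bent and 3.13 and 39.1 in mature, against 438 and 431 in heart and 1591 and 2389 in torpedo. These were lower in both, and the change of GSA2 in bent was -2.77 (SE 0.38, adjusted p = 5.64e-05). PORB (AT4G27440), a related oxidoreductase, had 5518 and 1596 in bent and 0 and 316 in mature, against 1612 and 1538 in heart and 18262 and 21998 in torpedo. GUN5 (AT5G13630), a magnesium chelatase subunit, was at 3301 and 1182 in bent and 3.13 and 77.3 in mature, against 2517 and 2313 in heart and 6678 and 5918 in torpedo. These were lower in mature and not called in bent, and the pooled fall of PORB was not called with DESeq2.

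Plastid fatty acid synthesis lay between its heart and torpedo levels in bent and far below both in mature. All 23 tested genes were lower in mature, where 52.7% of all genes tested were. In bent 3 were higher (BCCP2, AT5G15530, ACP5, AT5G27200, and GPT1, AT5G54800) and 1 lower, where 10.2% and 28.5% of all genes tested were. The medians were 0.15 in bent and -6.31 in mature, against -0.46 and -1.14 for all genes tested. MOD1 (AT2G05990), enoyl reductase, had 15301 and 10424 in bent and 7.82 and 357 in mature, against 14837 and 9603 in heart and 22074 and 24608 in torpedo. Its change was -0.40 (SE 0.86, adjusted p = 0.746) in bent and -8.00 (SE 0.86, adjusted p = 7.92e-07) in mature. KASI (AT5G46290), a ketoacyl synthase, had 41201 and 26041 in bent and 11 and 1067 in mature, against 12302 and 10762 in heart and 70344 and 81171 in torpedo. The pooled call of KASI was lost with DESeq2. CAC1 (AT5G16390), of acetyl-CoA carboxylase, was at 5102 and 3666 in bent and 1.56 and 142 in mature, against 3699 and 2504 in heart and 9131 and 8783 in torpedo. ENO1 (AT1G74030), plastid enolase, was at 3679 and 1967 in bent and 1.56 and 57.7 in mature, against 3035 and 2722 in heart and 7708 and 5183 in torpedo. In these 4 genes mature replicate 1 was far below mature replicate 2. ACP4 (AT4G25050), an acyl carrier protein better known from leaves, was the member lower in both, with 1138 and 510.4 in bent and 109.5 and 315 in mature, against 1244 and 1584 in heart and 3995 and 5661 in torpedo.

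Oil assembly outside the plastid was higher in bent for some genes and lower in mature for most. Of 14 genes 11 were lower in mature and 1 higher, and in bent 4 were higher (FAD3, FAD2, KCS18 and KCR1, AT1G67730) and 0 lower. Pooled counts of 1 higher and 9 lower became 4 and 4 with median-centred values. Of all genes tested 10.2% were higher in bent, 52.7% were lower in mature and 50% were lower with the stages pooled. KCS18 (AT4G34520), the seed fatty acid elongase, had 33124 and 27049 in bent and 228 and 377 in mature, against 3.02 and 0 in heart and 3988 and 5119.6 in torpedo. It was higher in both late stages, with 7.60 (SE 0.39, adjusted p = 5.74e-09) in bent and 0.94 (SE 0.39, adjusted p = 0.0425) in mature, although its mature libraries lay between the heart and torpedo ones. LPAT2 (AT3G57650), an acyltransferase, had 2288 and 1495 in bent and 15.6 and 56.7 in mature, against 1153 and 801 in heart and 3375 and 3550.3 in torpedo. LACS9 (AT1G77590), an acyl-CoA synthetase, had 3534 and 2451 in bent and 0 and 107 in mature, against 1498 and 2231 in heart and 7501 and 8523 in torpedo. CER10 (AT3G55360), an enoyl-CoA reductase, was at 4945 and 2816 in bent and 128 and 203 in mature, against 2268 and 2669 in heart and 6845 and 7484 in torpedo. These 3 did not pass the test in bent and were lower in mature. FAD2 (AT3G12120), which makes linoleic acid, had 153216 and 84356 in bent and 3106 and 3777 in mature, against 9886 and 13559 in heart and 57899.9 and 76504 in torpedo, higher in bent and lower in mature.

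The opposite movement that ranked first by the smaller of its 2 changes was that of FAD3 (AT2G29980, chr2:12781524-12785190, minus strand), the desaturase that makes linolenic acid. It had values of 66797 and 188801 in bent and 21.9 and 108 in mature, against 1269.7 and 681 in heart and 7160 and 7149 in torpedo. Its change was 5.44 (SE 0.52, adjusted p = 2.44e-06) in bent and -5.59 (SE 0.52, adjusted p = 1.94e-07) in mature, and the mature minus bent difference was -11.03. AGP17 (AT2G23130, chr2:9844134-9845385, plus strand), an arabinogalactan protein of the cell surface, had 2082 and 2194 in bent and 0 and 4.89 in mature, against 61.9 and 20 in heart and 125 and 349 in torpedo. ABCG8 (AT5G52860, chr5:21419590-21421715, minus strand), a transporter gene, was at 5272 and 2389.7 in bent and 0 and 19.6 in mature, against 28.7 and 75.1 in heart and 1069 and 1737 in torpedo. Like FAD3, these were higher in torpedo than in heart. ATCSLA09 (AT5G03760, chr5:985622-990630, minus strand), a glucomannan synthase, had 1253 and 1321 in bent and 1.56 and 1.96 in mature, against 55.9 and 32 in heart and 102 and 129 in torpedo. AT2G35470 (chr2:14908487-14909863, minus strand), annotated as a ribosome maturation factor, had 1907 and 1566 in bent and 0 and 11.7 in mature, against 31.7 and 30 in heart and 374 and 827 in torpedo. Both bent libraries lay above all 4 earlier ones and both mature libraries below all of them in these 5 genes, as the naming rule requires. Leaving out bent replicate 1 reduced this class to 315 genes.

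Movement the other way included genes known from stress responses. LSU2 (AT5G24660, chr5:8443279-8444101, minus strand), a gene responsive to low sulfur, had 0 and 0 in bent and 3713 and 3358 in mature, against 60.4 and 34 in heart and 32.8 and 22.7 in torpedo. Mature embryos were at least 1760-fold above bent, where no read was found, taking 3 reads over both bent libraries as the floor. ERF-1 (AT4G17500, chr4:9759203-9760391, plus strand), an ethylene response factor, had 0 and 0 in bent and 1895 and 593 in mature, against 190.2 and 93.1 in heart and 55.8 and 37.7 in torpedo. On the same floor it was at least 619-fold higher in mature than in bent. EDS16 (AT1G74710, chr1:28070295-28074177, plus strand), isochorismate synthase of salicylic acid synthesis, had 11.2 and 11.6 in bent and 1313 and 1225 in mature, against 109 and 155 in heart and 171 and 127 in torpedo. XTH11 (AT3G48580, chr3:18007098-18008535, plus strand), a cell wall enzyme gene, was at 15.7 and 4.97 in bent and 3608 and 2456 in mature, against 263 and 174 in heart and 115 and 99.99 in torpedo. AT2G32210 (chr2:13677986-13678906, plus strand), annotated as a cysteine-rich transmembrane protein, was at 20.2 and 23.2 in bent and 5776 and 4965 in mature, against 477 and 864 in heart and 194 and 193 in torpedo. In all 5 genes the heart and torpedo libraries lay between those of bent and mature, as the naming rule requires. Leaving out bent replicate 2 reduced this class to 216 genes.

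**Figure D5:**
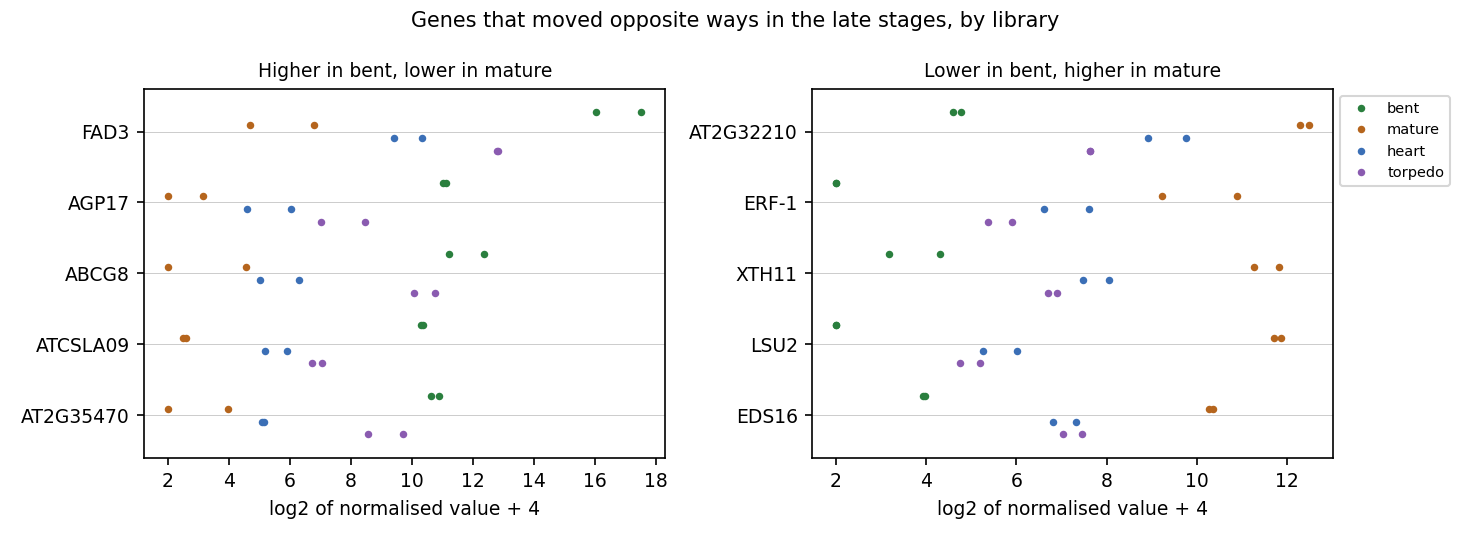
Each point is a library, placed by its log2 of normalised value + 4, for the 5 genes higher in bent and lower in mature (left) and the 5 lower in bent and higher in mature (right), with 2 points per stage. Heart and torpedo libraries lie between the late stages in all 10 genes, as the naming rule requires.

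The difference between torpedo and heart did not itself enter these classes, since both late stages were set against the mean of the pair. It does rest on the same libraries and the same estimate of spread per gene. The shares below are therefore descriptions, and those of all genes are not an independent baseline. Among the 872 genes higher in both late stages 314 (36.0%) were higher in torpedo than in heart and 35 (4.01%) lower, against 16.3% and 9.17% of all genes tested. Of the 3895 genes lower in both, 272 (6.98%) were higher in torpedo and 739 (19.0%) lower. The genes higher in bent and lower in mature were the most uneven, with 391 of 544 (71.9%) higher in torpedo than in heart and 3 lower, and a median of 2.09 against 0.19 for all genes. The size of this class depends on which earlier stage is the control. It was 1415 with bent minus heart and mature minus torpedo, and 112 with bent minus torpedo and mature minus heart. For those lower in bent and higher in mature 14 of 406 (3.45%) were higher in torpedo and 124 (30.5%) lower. For CRU3 the torpedo change was 4.24 (SE 0.51, adjusted p = 5.62e-05), and for LEC1 it was -3.39 (SE 0.55, adjusted p = 5.24e-04).

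Fewer genes were detected in mature embryos. A value of 10 or more was reached by 15357 and 14898 genes in bent and 12685 and 13425 in mature libraries, against 15481 and 15508 in heart and 15481 and 15672 in torpedo. The late libraries averaged 14091 ± 1248 and the earlier ones 15536 ± 91.9 (SD, n = 4 each). The difference was -1444 (exact permutation test, two-sided p = 0.0286, the smallest this design allows). With reads thinned to 5403798 in named genes it was -1750 (exact permutation test, two-sided p = 0.0857). At that depth 10 reads were reached by 13798 and 13527 genes in bent and 10418 and 11031 in mature, against 13740 and 13680 in heart and 14131 and 14225 in torpedo. The bent libraries then overlapped the heart ones, and both mature libraries lay below all others.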

How the data were processed

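The authors deposited a table with a signal per gene and library. Per the submitters' processing notes, STAR, HTSeq and DESeq2 were among the tools, with CASAVA, FastQC and Trimmomatic, on build TAIR10, and no settings or versions are stated. Values sum to 20000000 in each library and are whole multiples of the value of 1 read for 100% of entries (tolerance 0.001 reads), so whole reads were recovered for edgeR and DESeq2. The step that scaled them is not stated. Entries without identifier (103) held 9.15% to 26.3% of the reads and were left out. Genes at 10 or more in 2 libraries were tested on log2(value + 4). One limma 3.58.1 fit (R 4.3.3) held all 14 libraries, a term for stage, a trend in the prior variance and Benjamini-Hochberg adjustment at 0.05 (7 residual and 7.81 prior degrees of freedom). Neither the labels nor the term biological replicates says whether replicates came from separate plants, so the spread may be partly technical. Alternatives were other pseudocounts (1 and 16), filters, scalings, array weights, a fit of the 8 libraries alone, edgeR 4.0.16, DESeq2 1.42.0, other controls and each library left out. The procedure was tested on simulated data. Symbols and positions are from TAIR10.1, which 24932 of 25414 loci matched.

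The comparison, gene lists and naming rule were chosen with earlier results of these data known. Named by rule were the 10 genes up and 10 down that passed in the bent, mature and pooled contrasts, had a mean of at least 100 on the higher side and no overlap between late and earlier libraries, ranked by the smaller of the 2 late changes. The 5 of each opposite kind passed in both contrasts, had a mean of at least 100 in the highest stage and libraries not overlapping the earlier ones. Up to 4 members per list had the largest pooled change among those that passed with a mean of at least 100. Chosen after their values were seen were ABI3, ABI5, ACP4, ACP5, AT2G18540, AT4G36700, BCCP2, CDC2, COR15B, CUC1, ERD10, FAD2, FUS3, GEA6, GPT1, HSFA9, HSP17.6A, HSP17.6II, KCR1, M10, OLEO3, PAP85, PCK1, PSAD-2, RAB18, RBCS2B, UBQ10, WOX2, WOX8, WRI1 and YUC2. Of the lists, 2 fatty acid members were left out because the annotation did not describe them as listed. Cytosolic ribosomal proteins were taken by description alone, and their place in the cytosolic ribosome was not checked.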

Additional observations from a re-analysis of the deposited data

Results flagged for a closer look

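The 5 genes higher in bent and lower in mature embryos, and the 5 lower in bent and higher in mature, are given because the late stages moved apart in them. They were chosen for opposite calls in bent and mature, so their mature minus bent difference is a description and not a further test. The mature minus bent log2 differences were -11.03 for FAD3, -8.49 for AGP17, -8.52 for ABCG8, -7.81 for ATCSLA09 and -7.77 for AT2G35470. They were 7.71 for AT2G32210, 8.06 for ERF-1, 7.81 for XTH11, 9.79 for LSU2 and 6.37 for EDS16. ERF-1 and LSU2 were at 0 in both bent libraries, so their fitted differences depend on the pseudocount.

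Entries without a gene identifier, which no comparison used, held 26.3% of the reads of bent replicate 2. The part of this in the bent results was not tested, and without that library 1567 genes were higher and 2846 lower in bent.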

How the results depend on the processing

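None of the 109 genes carried through the alternatives reversed its pooled change (for the opposite kinds, its mature minus bent change), but the counts of genes moved with the scaling. Genes higher and lower with the late stages pooled numbered 4653 and 5262 with quantile normalization, 6725 and 4379 with median-centring, 4442 and 5368 with edgeR and 4737 and 5133 with DESeq2, and upper-quartile scaling gave 4159 higher. In bent, higher and lower numbered 2990 and 3411 with quantile normalization, 2934 and 3356 with median-centring, 3182 and 2711 with edgeR and 3211 and 2834 with DESeq2, and upper-quartile scaling gave 3219 lower. In mature they numbered 5564 and 6006, 8360 and 4774, 5657 and 6112, and 5647 and 5958 in the same order, and upper-quartile scaling gave 4843 higher. Higher and lower in both numbered 1407 and 2113 (upper-quartile), 1569 and 2014 (quantile), 1845 and 1621 (median-centring), 1664 and 1638 (edgeR) and 1733 and 1670 (DESeq2), and median-centring gave 717 genes lower in bent and higher in mature. The count of genes kept under every one of these was chosen after seeing the data.

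With controls that share no library, the opposite kinds numbered 1415 and 671 (bent minus heart, mature minus torpedo) or 112 and 203 (bent minus torpedo, mature minus heart). Leaving out each library in turn gave 2276 to 2486 genes higher and 8547 to 9370 lower (pooled), 1472 to 1907 and 2846 (without bent replicate 2) to 5391 in bent, 2651 to 3194 and 8690 to 9993 in mature, and 697 to 807 and 2125 (without bent replicate 2) to 3758 in both. The opposite kinds ranged over 315 to 507 and 216 to 348, the lowest being without bent replicate 1 and without bent replicate 2. The lone remaining library of a stage was there assumed to vary like the others. The difference in genes detected was -1750 at equal depth and no longer passed the threshold.

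Deviations of same-numbered libraries correlated by -0.11 to 0.30 between stages. They were highest for globular with torpedo (0.30) and bent (0.16) and for torpedo with bent (0.10). Since not all pairs of stages did so, the numbers were not taken to pair the libraries. The replicate block gave 876 genes higher and 3885 lower in both. Among these 109 genes 2275 values kept their call and 14 were no longer past the threshold, in CYP707A3, KASI, LACS7, LHCB5, PORB, GAPC2 and MUM4. With 2 libraries a stage, and 1 read worth up to 3.28 in torpedo replicate 1, low values are imprecise.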
